A study of Canis lupus familiaris with 36 samples.

Results

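The mitosis genes are a list of 45 genes whose products build the spindle, hold and separate chromosomes or drive cells into and out of division, and their RNA was followed across the disease states of canine lymphoma. Members were the probe sets annotated to the 45 symbols. Of these genes, 39 had a probe set, among 15115 genes measured in all, and 36 were bright enough to be tested. The study profiled tumour tissue from 35 dogs on 36 expression arrays, and the tumours had been broken up mechanically and filtered before total RNA was taken. None of the labels names a treatment, and no healthy tissue was analysed here.

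The B phenotype held 3 disease states. BL was the label of 2 dogs, a male and a female aged 2 and 5 years, both high grade. Diffuse large B-cell lymphoma (DLBCL) was the label of 10 dogs aged 4 to 14 years, 4 males and 6 females, all high grade. Marginal zone lymphoma (MZL) was the label of 5 dogs aged 4 to 10 years, 1 male and 4 females, all low grade. The T phenotype also held 3 disease states. LBT was the label of 4 dogs aged 3 to 10 years, 1 male and 3 females, all high grade. Peripheral T-cell lymphoma (PTCL) was the label of 4 dogs aged 6 to 14 years, 2 males and 2 females, of which 3 were high grade and dog 4 was of intermediate grade. T-zone lymphoma (TZL) was the label of 9 dogs aged 7 to 11 years, 6 males and 3 females, all low grade. A female of 8 years labelled NBNT, of neither phenotype and low grade, entered no test. Golden Retrievers numbered 1 in BL, 6 in DLBCL, 4 in MZL, 3 in LBT, 1 in PTCL and 8 in TZL, and the NBNT dog was one too. Grade and disease state cannot be told apart, because each state but PTCL has a single grade.

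In mitosis the cyclin-dependent kinase CDK1, with A- and B-type cyclins and helped by PLK1 and the Aurora kinases, starts the condensation of chromosomes and the building of a bipolar spindle. Kinetochores, protein assemblies on the centromeres, tie chromosomes to spindle microtubules, and the spindle checkpoint holds back the anaphase-promoting complex until every chromosome is attached. Many of these genes are transcribed late in the cell cycle under FOXM1 and MYBL2, so that their RNA is known as a mark of dividing cells, and pathologists count mitoses when they grade lymphoma.

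In the platform annotation used here no probe set carried the symbol, alone or beside others, of BUB1 and MAD2L1 of the spindle checkpoint, CCNB1, the kinetochore motor CENPE, the cytokinesis kinesin KIF20A or the proliferation marker MKI67. Another 3 members had a probe set that was too dim to be tested, with a log2 intensity of at least 4 in fewer than 4 of the 34 tested dogs. They were UBE2C, a ubiquitin-conjugating enzyme of the anaphase-promoting complex, ANLN, an actin-binding protein of the cleavage furrow, and the microtubule-depolymerising kinesin KIF2C. Every dog lay below 4 for ANLN and UBE2C. KIF2C had log2 intensities from 2.84 to 5.03 in LBT dogs, and its highest value elsewhere was 3.88, in a DLBCL dog. All levels below are log2 intensities of the brightest probe set of a gene, so they compare dogs within a gene and not genes with each other.

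Several features of the arrays bear on the results. On 6 arrays (DLBCL dogs 4 and 9, PTCL dog 3 and TZL dogs 1, 2 and 7) the 3' control for actin lay between 14.0 and 14.4, against 10.8 to 12.5 for the other 29 dogs. In MZL dog 2 and PTCL dog 3 a probe set for EIF2S3, which was above 8 or below 3 in most dogs and ran with labelled sex, opposed that label. It lay between these limits in BL dog 2 at 3.93, DLBCL dog 5 at 5.98 and PTCL dog 2 at 7.27, so these 3 dogs could not be checked. The 2 arrays of a repeated DLBCL case, replicates 6 and 7, were averaged, and their median absolute difference over the 36 tested members was 0.22. Cell type markers ran with the phenotype labels on average. The mean of 7 T cell markers lay between 6.31 and 8.75 in BL, DLBCL and MZL dogs, against 9.48 to 11.7 in LBT, PTCL and TZL dogs, and that of 6 B cell markers lay between 7.69 and 8.97 in B dogs and between 2.36 and 8.01 in T dogs, so the B cell ranges overlapped. The B cell factor PAX5 had a mean below the minimum of 4 in every disease state.

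The mean log2 intensity over the 39 measured members, called the score here, was lowest in TZL. BL dogs scored 7.61 and 7.89. DLBCL dogs scored between 6.13 and 7.88 with a median of 6.86, and the 5 MZL dogs scored 5.60, 6.65, 5.67, 5.28 and 6.22. The B tumours thus ran in the order BL, DLBCL, MZL with overlap between neighbouring states. LBT dogs scored 7.38, 7.16, 7.55 and 7.49, PTCL dogs 7.18, 6.25, 7.96 and 7.45, and TZL dogs between 3.52 and 5.92 with a median of 4.70. Every LBT and PTCL dog lay above every TZL dog, and LBT lay inside the range of PTCL. The NBNT dog scored 5.15, inside the range of TZL. In tumour tissue fewer dividing cells and less RNA per cell cannot be told apart, here and in every comparison below.

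**Figure D1:**
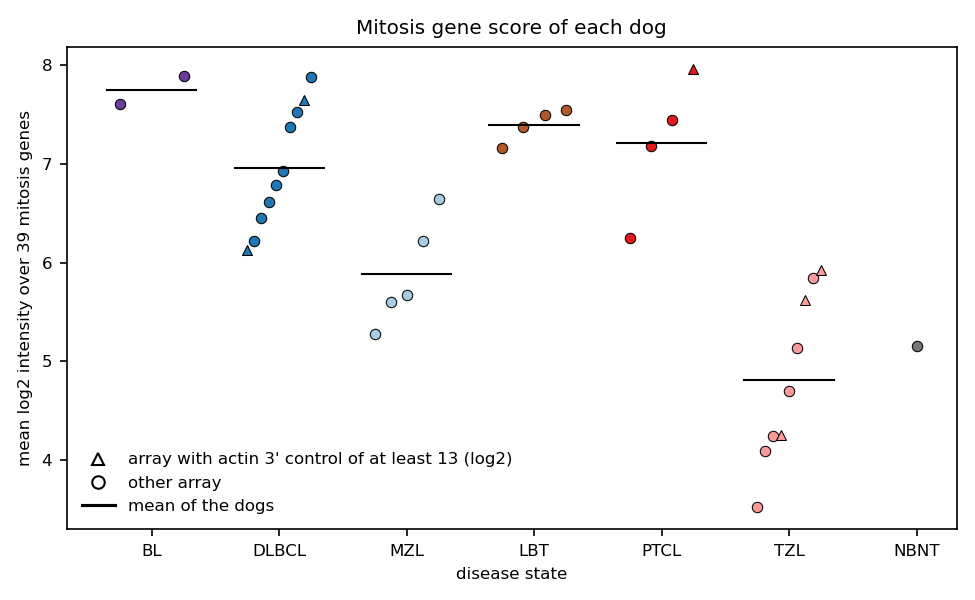
Mitosis gene score of each dog, the mean log2 intensity over 39 measured members, by disease state. Each point is a dog, triangles are the 6 arrays with a high actin 3' control and horizontal lines are group means, which run from 4.81 in TZL to 7.75 in BL.

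The order of disease states recurred from member to member. Over the 36 tested members, as a description of group means, TZL had the lowest mean in 35, and BL had the highest in 26, LBT in 7, PTCL in 2 and MZL in 1. MZL lay above TZL in 36 members, LBT above TZL in 36, PTCL above TZL in 35 and DLBCL above MZL in 33. BL lay above DLBCL in 35 members. The 3 states in the middle were closer, with DLBCL below PTCL in 28, DLBCL below LBT in 25 and LBT above PTCL in 25 members. The exception at both ends was NUMA1, the spindle-pole protein that tethers microtubule minus ends, whose mean was highest in MZL and lowest in BL. Members differed in how far they lay above the minimum, since all 36 had a mean of at least 4 in BL and in PTCL, 35 in LBT, 34 in DLBCL, 32 in MZL and 23 in TZL. Every TZL dog was below that minimum for the centromeric histone CENPA, the midzone bundling protein PRC1 and the microtubule-binding receptor HMMR, and every MZL dog was below it for PRC1.

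**Figure D2:**
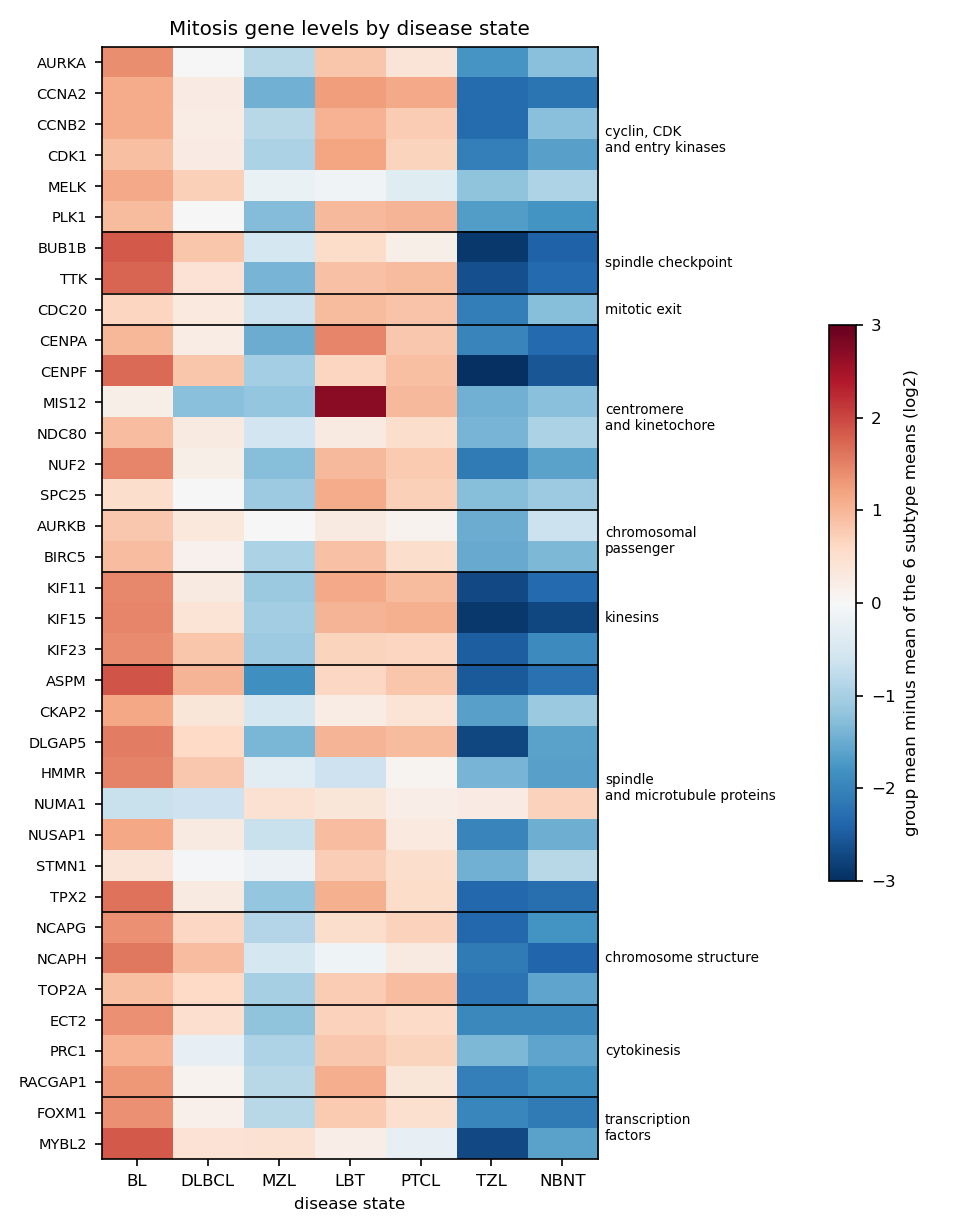
Mean level of the 36 tested mitosis genes in each disease state, minus the mean of that gene over the 6 tested disease states, on a log2 scale that is cut at -3 and 3. Rows are grouped by role. TZL is the lowest of the 6 tested states for every gene but NUMA1, MIS12 stands out in LBT, and BL is the highest column in 26 rows.

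PTCL against TZL asks how a high-grade T-cell tumour differs from a low-grade one. With limma's test and adjustment over 7500 genes, 33 of the 36 tested members rose in PTCL and none fell, against 7.6% of all genes called higher and 6.07% called lower. In 18 members every PTCL dog exceeded every TZL dog, a pattern found in 3.53% of all genes. The median log2 difference over the 36 was 2.61, a 6.09-fold difference, against 0.03 over all genes. Many members were close to background in TZL, where a log2 difference rests on values that are hardly measured, so for members with a TZL mean below 4 or most TZL dogs below it the fold with dim values raised to 4 is given beside it or in its place. With dim values raised, 32 members were called and the median difference was 2.21. These counts describe the members that passed the filter on dim genes. A member that passed it only through its bright states had to differ, so the share is no support in itself. Because mitoses are counted in grading, a rise from a low-grade to a high-grade state may be partly built into the labels. This was not tested.

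Among the cyclins, CDK1 and the entry kinases, 5 of 6 rose in PTCL. CDK1 had log2 intensities of 9.10, 8.66, 9.50 and 9.10 in PTCL dogs, against 4.65 to 7.57 with a median of 6.34 in TZL dogs. The groups did not overlap, and the log2 difference was 2.71 ± 0.43 (SE, limma adjusted p = 9.34e-05). CCNA2, the A-type cyclin, had a difference of 3.44, CCNB2 of 3.08, PLK1 of 2.71 and AURKA of 2.15. MELK, an embryonic leucine zipper kinase, was the exception in this role at 0.84 (adjusted p = 0.107), with values of 6.62, 6.23, 7.81 and 8.29 in PTCL dogs against 5.10 to 7.23 in TZL dogs. Both checkpoint kinases rose, but 7 of 9 TZL dogs were below the minimum for TTK and 5 of 9 for BUB1B. With dim values raised TTK was 5.41-fold and BUB1B 5.75-fold higher. A rise was also called for CDC20, the activator of the anaphase-promoting complex that the checkpoint restrains, by 2.93.

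All 6 tested centromere and kinetochore members rose in PTCL. CENPF, a large protein of the outer kinetochore, had 7.94, 7.18, 8.94 and 7.51 in PTCL dogs, against 1.98 to 5.48 with a median of 4.34 in TZL dogs. The groups did not overlap, and the difference was 3.98 ± 0.56 (adjusted p = 1.94e-05). With 4 of 9 TZL dogs below the minimum, the fold was 10.8 once dim values were raised to it. MIS12, which joins the centromere to the microtubule-binding part of the kinetochore, had 5.99, 6.25, 6.78 and 4.57 in PTCL dogs and 2.93 to 4.06 with a median of 3.53 in TZL dogs. Its difference was 2.41 ± 0.36 (adjusted p = 3.92e-05), or 3.71-fold with dim values raised, since 8 of 9 TZL dogs were below the minimum. The NDC80 complex, the microtubule anchor itself, was represented by NUF2 at 2.91, SPC25 at 1.99 and NDC80 at 1.93, and CENPA was at least 2.72-fold higher in PTCL.

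The kinesins had the largest median difference of the roles with more than 2 tested members, 3.66. KIF15, a kinesin that keeps spindle poles apart, had 7.58, 8.08, 8.61 and 7.48 in PTCL dogs, against 2.71 to 5.44 with a median of 4.18 in TZL dogs. The groups did not overlap, and the difference was 3.96 ± 0.47 (adjusted p = 1.34e-06), or 11.2-fold once dim values were raised to the minimum. KIF11, the motor that first pushes the poles apart, had 8.83, 8.57, 8.98 and 9.05 in PTCL dogs and 2.99 to 7.05 with a median of 4.60 in TZL dogs. Its difference was 3.66 ± 0.57 (adjusted p = 5.78e-05), and KIF23, a kinesin of the central spindle, was 5.79-fold higher with dim values raised, since 5 of 9 TZL dogs were below the minimum. All 3 showed no overlap between the groups.

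Of the 8 spindle and microtubule proteins, 6 rose in PTCL. STMN1 (stathmin), which takes microtubules apart until it is phosphorylated in mitosis, had 12.72, 12.77, 13.19 and 12.21 in PTCL dogs and 9.66 to 11.64 with a median of 10.67 in TZL dogs. The difference was 1.95 ± 0.24 (adjusted p = 1.76e-06), the most precise of the list. NUSAP1 had a difference of 2.28 and CKAP2 of 2.04. The other 3 were below the minimum in 5 of 9 TZL dogs (DLGAP5), 6 of 9 (ASPM) and 7 of 9 (the microtubule nucleator TPX2), and with dim values raised DLGAP5 was 8.86-fold, ASPM 5.25-fold and TPX2 4.12-fold higher. HMMR had 3.60 to 5.39 in PTCL dogs and lay below the minimum of 4 in all 9 TZL dogs, so it was at least 1.34-fold higher by its means, and it did not pass (adjusted p = 0.0544). NUMA1 did not pass either, at -0.04 ± 0.25 (adjusted p = 0.946), with 6.36, 6.05, 6.43 and 5.74 in PTCL dogs inside the TZL range of 5.34 to 6.57.

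Every tested member of the remaining roles rose in PTCL. TOP2A, the topoisomerase that untangles sister chromatids, had 10.37, 9.24, 12.22 and 10.33 in PTCL dogs, against 4.97 to 9.21 with a median of 7.71 in TZL dogs, without overlap. The difference was 3.14 ± 0.59 (adjusted p = 0.000524), and the condensin subunit NCAPG stood at 3.04. NCAPH, another condensin subunit, was below the minimum in 5 of 9 TZL dogs and was 4.00-fold higher with dim values raised. AURKB and BIRC5 (survivin), partners in the chromosomal passenger complex, had differences of 1.59 and 2.06. Of the cytokinesis genes, ECT2 and its regulator RACGAP1 were below the minimum in 6 and 7 of the 9 TZL dogs. They were 3.47-fold and 3.78-fold higher with dim values raised, and PRC1 was at least 1.59-fold higher. MYBL2 had 6.72, 6.03, 7.55 and 8.88 in PTCL dogs and 2.74 to 6.47 with a median of 4.59 in TZL dogs, so the groups overlapped, with a difference of 2.47 ± 0.58 (adjusted p = 0.0043). FOXM1, below the minimum in 7 of 9 TZL dogs, was 3.55-fold higher with dim values raised, without overlap.

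Beside these differences, the T cell markers averaged 9.48 to 11.5 in PTCL dogs and 11.0 to 11.7 in TZL dogs, and the 6 B cell markers 3.61 to 7.93 and 3.53 to 8.01. The 4 endothelial markers averaged 4.36 to 4.77 in PTCL and 2.82 to 4.18 in TZL. Among them VWF and CDH5 were below the minimum on average in both states and KDR in TZL. The 4 plasma cell markers averaged 6.53 to 8.43 in PTCL and 7.05 to 8.52 in TZL. Among them SDC1 was below the minimum on average in every tested state, and PRDM1 in all but PTCL and TZL. The 7 macrophage markers averaged 4.20 to 6.86 in PTCL and 2.40 to 6.26 in TZL. Among them CD163 was below the minimum on average in both states, and CD14 and MARCO in TZL. The part of these markers in the result was not tested. Without the 6 high actin arrays 32 members rose, with those arrays as a block 34 did, and 32 did without MZL dog 2 and PTCL dog 3. Among Golden Retrievers, PTCL dog 2 was the only PTCL dog, set against 8 TZL dogs. Far fewer members were called there, without TOP2A at 2.01, CDK1 at 2.40 or MYBL2 at 1.37. The median log2 difference over the 36 was 1.48, against 2.61 with all dogs. This PTCL dog was the lowest of its group in 31 of the 36 members, so breed and dog cannot be told apart here.

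**Figure D3:**
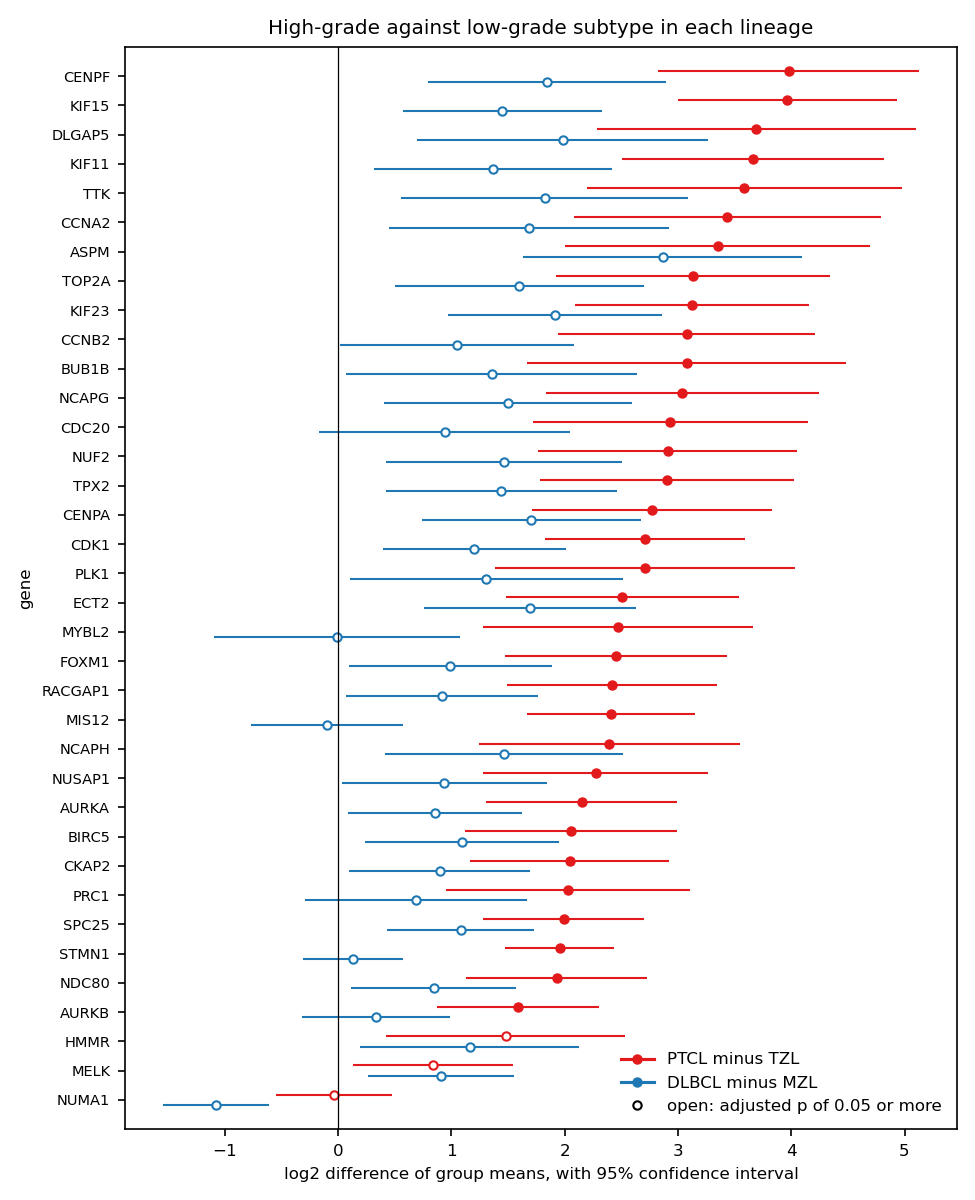
Log2 differences of group means with 95% confidence intervals for the 36 tested mitosis genes, PTCL minus TZL in red and DLBCL minus MZL in blue. Filled points passed an adjusted p of 0.05 in limma's test, as 33 of the red and none of the blue points did, and NUMA1 at the bottom has the only blue interval that lies wholly below 0.

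LBT, the other high-grade T state, was set against the same TZL dogs, so that the 2 comparisons share them. Here 34 members rose and none fell, against 17.8% and 12.4% of all genes, with a median log2 difference of 2.94. The states did not overlap for 28 members, a pattern seen in 10.3% of all genes. The members that did not pass were NUMA1 at 0.13 and HMMR, which has no measurable difference here because its means were below the minimum in both states. MIS12 had 9.09, 7.18, 7.02 and 7.29 in LBT dogs, all above the highest TZL dog at 4.06, with a difference of 4.15 ± 0.36 (adjusted p = 7.72e-10), or 12.4-fold with dim values raised. CDK1 had 9.59, 9.45, 9.73 and 9.66 in LBT dogs, a spread narrower than in any other state with more than 2 dogs, and a difference of 3.23 ± 0.43 (adjusted p = 2.23e-06). Other differences were 2.39 for SPC25, 2.17 for STMN1, 2.97 for TOP2A and 2.91 for MYBL2. With dim TZL values raised KIF15 was 10.9-fold and RACGAP1 6.22-fold higher. All 6 were called. The plasma cell markers averaged 5.73 to 6.42 in LBT and 7.05 to 8.52 in TZL. Among them PRDM1 was below the minimum on average in LBT and SDC1 in both states. The B cell markers averaged 2.36 to 6.33 in LBT and 3.53 to 8.01 in TZL. The part of these markers in the result was not tested.

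LBT and PTCL differed by call in 1 member. MIS12 rose in LBT by 1.75 ± 0.43 (adjusted p = 0.043), against 0.467% of all genes called higher, and no member fell, against 0.213%. The endothelial markers averaged 2.69 to 3.82 in LBT and 4.36 to 4.77 in PTCL dogs, without overlap. The plasma cell markers averaged 5.73 to 6.42 in LBT and 6.53 to 8.43 in PTCL dogs, also without overlap. Below the minimum on average were VWF, CDH5 and SDC1 in both states, and KDR and PRDM1 in LBT. The part of these markers in the result was not tested. Every LBT dog exceeded every PTCL dog for MIS12 and for RACGAP1, as in 2.61% of all genes. The median difference was 0.16, and the intervals were wide. For CDK1 the log2 difference was 0.52 (95% interval -0.52 to 1.56), for MYBL2 0.44 (-0.96 to 1.84), for NUMA1 0.16 (-0.44 to 0.77) and for TOP2A -0.16 (-1.59 to 1.26), so shifts of 2-fold in either direction lay inside some of them. The MIS12 call was lost in 15 of the 34 fits that left out a dog, namely DLBCL dogs 1, 2, 6 and 9, MZL dogs 1 and 5, LBT dogs 1 and 2, PTCL dogs 1 and 4, or TZL dogs 2, 4, 6, 8 and 9, with an adjusted p of at most 0.233. Without LBT dog 1, whose value was the highest, the difference was 1.26.

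DLBCL against MZL sets a high-grade B-cell tumour against a low-grade one. No member passed limma's adjusted p, and neither did any of the 7500 genes, which is 0% called in either direction. At an unadjusted p under 0.05 there were 30 of the 36 members, against 13% of all genes, and 33 differences were positive. The median log2 difference was 1.18, or 2.27-fold, against -0.03 over all genes. As with the T tumours, this describes members that passed the filter.

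The smallest p belonged to ASPM, a spindle-pole protein that sets the orientation of the spindle. It had 5.31 to 8.35 with a median of 6.97 in DLBCL dogs, against 4.59, 4.59, 2.93, 3.14 and 5.22 in MZL dogs. The groups did not overlap, as for TOP2A, a pattern seen in 0.0933% of all genes, and the difference was 2.87 ± 0.60 (adjusted p = 0.0565), or 5.57-fold with dim values raised, since 2 of 5 MZL dogs were below the minimum. KIF23 had a difference of 1.92 ± 0.46 (adjusted p = 0.0633), with 6.25 to 7.92 in DLBCL dogs and 4.35 to 6.48 in MZL dogs. NUMA1 ran the other way, at 4.46 to 6.30 with a median of 5.30 in DLBCL dogs and 6.11, 6.37, 6.88, 6.31 and 6.35 in MZL dogs, a difference of -1.08 ± 0.23 (adjusted p = 0.0565). A single DLBCL dog reached into the lower end of the MZL range.

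TOP2A had 9.51 to 11.54 in DLBCL dogs and 8.63, 9.23, 8.26, 8.03 and 8.89 in MZL dogs, with a difference of 1.60 ± 0.54 (adjusted p = 0.193). CDK1 stood at 1.20 ± 0.40 (adjusted p = 0.185). By role the median differences were 1.59 for the checkpoint, 1.50 for chromosome structure, 1.45 for the kinesins, 1.27 for centromere and kinetochore, 1.13 for the entry kinases, 1.05 for spindle and microtubule proteins, 0.94 for mitotic exit, 0.92 for cytokinesis, 0.72 for the chromosomal passenger complex and 0.49 for the transcription factors. MYBL2 and STMN1 were near 0, at -0.01 ± 0.53 and 0.13 ± 0.22, and several alternative settings turned the sign for MYBL2. MIS12 was below the minimum in 7 of 10 DLBCL dogs and 3 of 5 MZL dogs, so its difference of -0.10 is between means that are not above background, and its sign turned as well. MYBL2 values were 6.66 to 8.78 with a median of 8.07 in DLBCL dogs and 6.84, 8.46, 9.57, 7.49 and 7.56 in MZL dogs, and MZL dog 3 was the highest of both groups.

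The actin control differed between these states, with a 3' minus 5' log2 difference of -0.27 to 4.50 in DLBCL dogs and -1.03 to -0.06 in MZL dogs. With this and the GAPDH control as covariates no member was called and the score difference was 0.70, against 1.07 without them, and without the 6 high actin arrays ASPM and KIF23 were called higher and NUMA1 lower in DLBCL. The 6 B cell markers averaged 8.06 to 8.85 in DLBCL and 8.35 to 8.97 in MZL, and the T cell markers 6.53 to 8.42 and 6.31 to 8.75, and their part was not tested. Calls also appeared, up to 3, when DLBCL dog 3, 8, 9 or 10, MZL dog 2 or TZL dog 2 or 7 was left out.

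Whether the step between grades differs between the lineages was tested as a difference of differences, PTCL minus TZL less DLBCL minus MZL. It was called in 3 members, all larger in T, against 1.21% of all genes called higher and 0.747% called lower, and 35 of 36 estimates were positive with a median of 1.45. STMN1 differed by 1.95 between the T states and by 0.13 between the B states, and the difference of 1.82 ± 0.32 passed (adjusted p = 0.00174). For MIS12 it was 2.50 ± 0.49 (adjusted p = 0.00537), but its means were below the minimum in TZL, DLBCL and MZL, so the size is uncertain, and it was 1.89 with dim values raised (adjusted p = 0.0062). KIF15 differed by 3.96 in T and by 1.45 in B, and its difference was 2.51 ± 0.64 (adjusted p = 0.0304), or 2.04 with dim values raised, still called. Estimates that did not pass were 2.48 ± 0.79 for MYBL2 (adjusted p = 0.105), 1.04 for NUMA1, 1.51 for CDK1 and 1.53 for TOP2A. The KIF15 call was lost without MZL dog 2, 3 or 5 or PTCL dog 2 or 3. Without the 6 high actin arrays, or without MZL dog 2 and PTCL dog 3 together, 1 call was left, that of STMN1. Among Golden Retrievers, with PTCL dog 2 as the only PTCL dog, the STMN1 estimate was 1.87 and was not called.

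Probe sets of a gene did not all give the same size. STMN1 and NUMA1 have a single probe set each. KIF15 has 5, and on the second-brightest the means were 6.96 in PTCL and 5.40 in TZL, against 7.93 and 3.97 on the brightest, which leaves a difference between steps of 0.83 (adjusted p = 0.395). On the third-brightest the means were 7.39 in PTCL, 3.55 in TZL, 6.64 in DLBCL and 5.32 in MZL. On the fourth they were 4.63 in PTCL and 2.49 in TZL, and the fifth was below the minimum in every dog. These dimmer KIF15 probe sets were not tested on their own. All 3 MIS12 probe sets were highest in LBT, with means of 7.64, 6.23 and 7.32, followed by PTCL with 5.90, 5.36 and 5.08, while TZL means were 3.49, 3.29 and 2.09. On the second-brightest probe set the MIS12 difference between steps was 1.84 and no longer passed (adjusted p = 0.0571). STMN1 has no second probe set, so its call in this setting rests on the same values and is no separate check. Both MYBL2 probe sets gave DLBCL means close to those of MZL, at 7.97 and 7.04 in DLBCL and 7.99 and 7.33 in MZL.

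**Figure D4:**
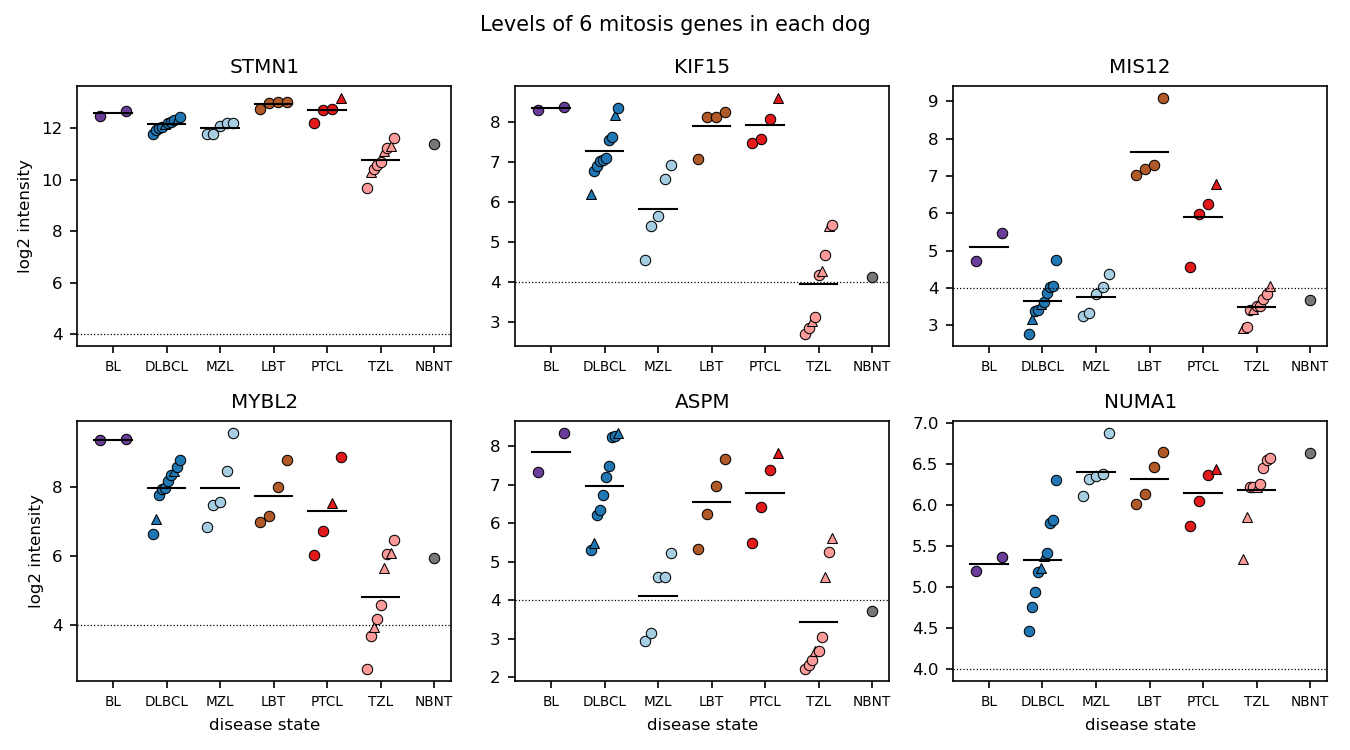
Log2 intensity of STMN1, KIF15, MIS12, MYBL2, ASPM and NUMA1 in each dog by disease state. Points are dogs, triangles are arrays with a high actin 3' control, solid lines are group means and the dotted line is the minimum of 4, and each panel has its own scale. MIS12 runs between 7.02 and 9.09 in LBT, MYBL2 reaches 9.57 in an MZL dog, and NUMA1 has its lowest values in BL and DLBCL.

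The low-grade states were compared across the lineages. In MZL 16 of the 36 members rose over TZL and none fell, against 15.2% and 12.3% of all genes, with a median log2 difference of 1.16. MYBL2 led with 3.16 ± 0.54 (adjusted p = 6.48e-05), and all 5 MZL dogs were above the highest TZL dog at 6.47. STMN1 had 11.77, 12.21, 12.09, 11.80 and 12.22 in MZL dogs, also above every TZL dog, with a difference of 1.25 ± 0.22 (adjusted p = 9.39e-05). AURKB, with 8.66, 9.40, 9.22, 8.32 and 8.68 in MZL dogs against 6.67 to 8.27 in TZL dogs, was the third member without overlap, as in 7.01% of all genes, and had a difference of 1.46 ± 0.33 (adjusted p = 0.0012).

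With dim values raised, BUB1B was 3.53-fold, CENPF 2.89-fold and KIF15 2.60-fold higher in MZL than in TZL, with overlap. All 3 kinesins were called, and 3 of the 6 cyclins and entry kinases, CDK1 among them at 1.09 ± 0.40 (adjusted p = 0.0418). The kinetochore was called in 1 of 6 members. On their second-brightest probe sets KIF15 was at 0.28 (adjusted p = 0.53) and CENPF at 0.81 (adjusted p = 0.327), and neither was called. The third-brightest KIF15 probe set, not tested on its own, had means of 5.32 in MZL and 3.55 in TZL. Dimmer KIF15 probe sets had means below the minimum in both states. TOP2A at 1.20 (adjusted p = 0.102) and NUMA1 at 0.22 did not pass, nor did MIS12, whose means were below the minimum in both states. The 4 plasma cell markers averaged 5.95 to 6.47 in MZL dogs and 7.05 to 8.52 in TZL dogs, without overlap. Among them SDC1 was below the minimum on average in both states and PRDM1 in MZL. The macrophage markers averaged 4.14 to 5.83 in MZL and 2.40 to 6.26 in TZL. Among them CD163, CD14 and MARCO were below the minimum on average in both states and CSF1R in MZL. The part of these markers in the result was not tested. The count moved with single dogs. Without MZL dog 2 or MZL dog 5 it was 6, without TZL dog 5 it was 9, and without the 6 high actin arrays it was 23. The CDK1 call was lost without MZL dog 1, 2 or 5 or TZL dog 1, 4, 5, 6 or 8.

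Between the high-grade states of the lineages, DLBCL against PTCL, 1 member rose and 2 fell, against 9.69% and 11.2% of all genes, with a median log2 difference of -0.34. MIS12 had 2.77 to 4.75 with a median of 3.61 in DLBCL dogs, against 4.57 to 6.78 in PTCL dogs, and fell by 2.23 ± 0.36 on the log2 scale (adjusted p = 4.98e-05). NUMA1 fell by 0.82 ± 0.25 (adjusted p = 0.0175). MELK, at 7.78 to 8.88 in DLBCL dogs and 6.23 to 8.29 in PTCL dogs, rose by 1.09 ± 0.34 (adjusted p = 0.0224). MIS12 was below the minimum in 7 of 10 DLBCL dogs, and with dim values raised it fell by 1.81. The NUMA1 call was lost without PTCL dog 1 or 3 and the MELK call without PTCL dog 1 or 2. The GAPDH 3' minus 5' log2 difference averaged 3.43 in DLBCL and 2.82 in PTCL dogs. With the actin and GAPDH controls as covariates MELK was at 0.88 (adjusted p = 0.107) and NUMA1 at -0.62 (adjusted p = 0.0965), and neither was called. CDK1 at -0.42, TOP2A at -0.33 and MYBL2 at 0.68 did not pass.

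BL had the highest score, but only 2 dogs. No member passed limma's adjusted p against DLBCL, where 0.0267% of all genes did, and 3 passed an unadjusted p under 0.05, against 5.68% of all genes. They were MIS12, with 4.72 and 5.48 in BL dogs and a difference of 1.44 ± 0.47 (adjusted p = 0.534), or 2.02-fold with dim values raised because 7 of 10 DLBCL dogs were below the minimum, AURKA at 1.38 ± 0.53 (adjusted p = 0.752) and RACGAP1 at 1.20 ± 0.59 (adjusted p = 0.879). Both BL dogs lay above every DLBCL dog for AURKA, MYBL2 and STMN1, as in 2.2% of all genes. The MYBL2 values were 9.36 and 9.39 in BL. The median log2 difference over the 36 was 0.88, against 0.09 over all genes. Differences were 0.65 for CDK1, 0.30 for TOP2A and -0.05 for NUMA1.

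Over all 17 B against all 17 T dogs, 10 of the 36 members were called higher and 2 lower, against 24.2% and 22.3% of all genes. The share called higher was thus near that of all genes, and the share called lower was below it. With both directions joined, 12 members were called against 46.5% of all genes, a smaller share. That order turned with array weights, where 28 of 36 members were called against 54.3% of all genes, and in Golden Retrievers, where 21 of 36 were called against 41.2%. MELK was called at 1.25 ± 0.25 (adjusted p = 0.000108), averaging 8.10 ± 0.60 in B dogs against 6.85 ± 0.85 in T dogs (SD, n = 17 in both). The next were MYBL2 at 2.05, HMMR, NCAPH at 1.66, AURKB at 0.98 and BUB1B at 1.91. HMMR was below the minimum in 4 of 17 B and 13 of 17 T dogs and was 1.72-fold higher in B with dim values raised. NUMA1 fell by 0.57 in B. MIS12 was called lower in B, where 10 of 17 dogs were below the minimum, and was 2.15-fold lower with dim values raised. The MIS12 call was lost in 16 of the fits that left out a dog, the LBT dogs 1 to 4, the PTCL dogs 1 to 3, the MZL dogs 3 and 4 and the DLBCL dogs 1, 3, 4, 6, 8, 9 and 10. CDK1 at 0.62 and TOP2A at 0.93 did not pass. The T group joins TZL dogs with LBT and PTCL dogs, whose scores did not overlap those of TZL. With the RNA controls as covariates 4 members were called, and HMMR, NCAPH, BUB1B and NUMA1 were no longer among them.

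Spread within a state was widest in TZL and narrowest in BL and LBT. The median SD over the 36 members was 1.05 in TZL, 0.95 in PTCL, 0.80 in DLBCL, 0.69 in MZL, 0.51 in LBT and 0.27 over the 2 BL dogs. Much of it ran through whole dogs. MZL dog 2 was the highest of its 5 dogs in 27 of the 36 members, PTCL dog 2 the lowest of its 4 in 31, and PTCL dog 3 the highest in 24. TZL dog 5 was the lowest of 9 in 25 members and had 12 of the 39 measured members at or above the minimum, while TZL dogs 7 and 9 were the highest in 16 and 14 and had 33 and 32. In DLBCL, dog 5 was the highest of 10 in 17 members, and dogs 9 and 10 were the lowest in 14 and 11. MZL dog 2 and PTCL dog 3 are the dogs whose EIF2S3 probe set opposed the labelled sex, and PTCL dog 3, TZL dog 7 and DLBCL dog 9 are among the high actin arrays, and the part of either in these ranks was not tested.

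Related genes outside the list gave a measure of how far the pattern reached in the machinery of division. Of 23 other tested centromere and kinetochore genes, 14 rose in PTCL and 16 in LBT over TZL and 8 in MZL over TZL, against 7.6%, 17.8% and 15.2% of all genes. CENPK, a subunit of the inner kinetochore, was 4.51-fold higher in PTCL and 6.41-fold higher in LBT with dim values raised, 6 of 9 TZL dogs being below the minimum (adjusted p = 2.2e-05 and 3.39e-07 on the values as deposited). Of 14 other kinesins, spindle and cytokinesis genes, 10 rose in PTCL and 10 in LBT, led by the chromosome-arm kinesin KIF22 at 2.87 and 3.63 and the centriole kinase PLK4, which was 4.85-fold and 6.63-fold higher with dim values raised. Condensin and cohesin rose in 9 of 18 genes in PTCL and in 10 in LBT, where 1 fell, against 12.4% of all genes called lower there. PTTG1 (securin), which holds separase inactive until anaphase, stood at 3.32 and 3.47.

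The remaining lists had smaller shares of called genes in PTCL, apart from entry control. Over all genes 7.6% rose and 6.07% fell in PTCL, and 17.8% rose and 12.4% fell in LBT, and the counts of the anaphase-promoting complex and of DREAM and MuvB in PTCL are close to that. In the anaphase-promoting complex and its regulators, 2 of 16 genes rose and 1 fell in PTCL, with FBXO5, its inhibitor in interphase, at 2.31 and the subunit ANAPC11 at -0.77, and 5 rose and 1 fell in LBT. Among 9 genes of the DREAM and MuvB complexes, which repress or activate cell cycle genes, 1 rose in PTCL, TFDP2, which was 3.38-fold higher with dim values raised, and 4 rose in LBT. Of 8 genes of mitotic entry control, 4 rose and 1 fell in PTCL, and 5 rose and 1 fell in LBT. The gene that fell was CDC25B, a phosphatase that activates CDK1, the opposite direction to CDK1 and its cyclins. All 4 PTCL and all 4 LBT dogs were below the minimum for it, so it was at least 4.73-fold lower in each state (adjusted p = 7.79e-07 in PTCL), and its difference in MZL against TZL was -2.19. For DLBCL against MZL none of these 6 lists had a called gene, where no gene of the whole table was called.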

How the data were processed

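Tumour RNA from 36 Affymetrix canine arrays was analysed. The deposited intensity values, 1 per probe set and array on a linear scale, had been made by the authors with GCRMA, per the submitters' processing notes (version not given in the sources used here). Their medians lay between 5.57 and 6.13. GCRMA subtracts a modelled background, and the size of differences of dim genes is uncertain. Probe sets were named through the platform annotation. Values were floored at 1 and converted to log2, the probe set of highest mean over all arrays stood for each gene, and the 7500 genes that reached log2 4 in 4 or more of the 34 dogs were tested. R 4.3.3 and limma 3.58.1 (lmFit, eBayes, two-sided, Benjamini-Hochberg over all tested genes, adjusted p of 0.05) were used with a mean for each of the 6 disease states, and with 2 means for B against T. The replicates are separate dogs. Tests and log2 differences used the values as floored. Folds of members dim in a group were computed after raising dim values to the minimum or, where every dog of a group was below it, as a bound against it.

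The members and lists were chosen with earlier results of these data known. Members given with statistics were up to 6 called members of smallest p in each direction in a comparison (3 where none was called), plus CDK1, MKI67, TOP2A, MYBL2, NUMA1 and MIS12 where tested, and 2 called genes of smallest p in each further list. Differences of further members are given as part of their role, and members were named after their values were seen where groups did not overlap. The fitting code was run on simulated data with independent noise in each gene and dog. Those data lacked the spread that ran through whole dogs here, so they are no check on the counts of members. Alternatives covered the filter, normalization, variance model, array weights, probe set choice, covariates, breed, the high actin arrays and each dog in turn, and leaving out the 2 dogs of opposed sex probe set was added after seeing the data. Promoter and protein sequences were not used here, so the planned motif search was not run.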

Additional observations from a re-analysis of the deposited data

Results flagged for a closer look

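In the groups of 4 to 10 dogs, 11 member values lay apart from the rest of their group, out of 180 groups tested, or 6.11%, where chance gives about 1 in 20 groups. PTCL dog 2 was the lowest of its group for BUB1B at 5.22, NUSAP1 at 7.05 and CDC20 at 7.38. LBT dog 2 was the lowest for KIF15 at 7.07 and NCAPH at 4.46. DLBCL dog 8 was the highest for NCAPH at 9.21 and HMMR at 8.37. Others were AURKA in LBT dog 4 at 8.4, MIS12 in LBT dog 1 at 9.09, and PRC1 in MZL dog 2 at 3.76 and in TZL dog 7 at 3.96, both below the minimum of 4. A test of the difference itself found the step between grades larger in T than in B for KIF15 by 2.51, STMN1 by 1.82 and MIS12 by 2.5 on the log2 scale.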

How the results depend on the processing

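Counts of called members stayed within 1.5 times under every alternative for LBT against TZL (33 to 34 when each dog was left out in turn) and for BL against DLBCL (0 in each). For PTCL against TZL the sole exception was Golden Retrievers alone, where PTCL dog 2, the only PTCL dog, was assumed to vary like the others. Far fewer members were called there, the median log2 difference was 1.48 and the score difference was 1.53. Leaving out each dog gave 32 to 34. For LBT against PTCL the count was 0 with no filter, a trend and robust variance model, array weights, the second-brightest probe set, covariates for sex, breed and age, Golden Retrievers alone (score difference 1.16), the compared groups alone, and without the PTCL dog of intermediate grade, and 0 to 1 without each dog, with score differences of -0.13 to 0.44. For DLBCL against MZL it was 2 with a stricter filter at log2 6, the mean of probe sets, the second-brightest probe set, the first array of the repeated case or without MZL dog 2 and PTCL dog 3 (the 2 dogs, a choice added after seeing the data), 3 without the high actin arrays, 6 with dim values raised to the minimum, 8 with array weights, and 0 to 3 without each dog. For MZL against TZL it was 10 with no filter or the second-brightest probe set, 25 with array weights, 6 without the 2 dogs, and 6 to 21 without each dog. For DLBCL against PTCL it was 1 with the compared groups alone and 1 to 4 without each dog. The score difference reversed to 1.02 in Golden Retrievers, where PTCL dog 2 stood alone, and to 0.015 without the high actin arrays. For B against T it was 28 with array weights, 7 with the second-brightest probe set, 21 in Golden Retrievers, 4 with RNA controls as covariates, and 9 to 13 without each dog. For the difference between steps it was 1 with the second-brightest probe set, in Golden Retrievers, without the high actin arrays or without the 2 dogs, 6 with RNA controls, and 2 to 4 without each dog. The causes were not tested.

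Single members that turned sign were all uncalled. NUMA1 turned to 0.065 with sex, breed and age as covariates and to 0.10 without the intermediate dog for PTCL against TZL (-0.14 to 0.10 without each dog), to -0.034 with those covariates and -0.063 without the high actin arrays for LBT against TZL, to -0.10 with the covariates for LBT against PTCL, and to 0.072 with array weights for BL against DLBCL (-0.14 to 0.063 without each dog). TOP2A for LBT against PTCL turned to 0.036 with array weights, 0.15 with the covariates, 1.19 in Golden Retrievers, 0.16 with the high actin block, 0.40 without those arrays or without the 2 dogs, and 0.17 with RNA controls (-0.60 to 0.40 without each dog). TOP2A for DLBCL against PTCL turned to 1.32 in Golden Retrievers, 0.10 without the high actin arrays and 0.23 without the 2 dogs (-0.76 to 0.23 without each dog), and CDK1 to 0.30 in Golden Retrievers. For DLBCL against MZL, MYBL2 turned to 0.0013 with centred arrays, 0.043 with quantile normalization, 0.34 with array weights, 0.66 in Golden Retrievers, 0.039 without the high actin arrays and 0.10 without the 2 dogs (-0.30 to 0.38 without each dog), and MIS12 to 0.027 with the mean of probe sets, 0.23 with the second-brightest, 0.0031 with dim values raised to the minimum and 0.057 without the 2 dogs (-0.23 to 0.057 without each dog). No paired analysis was possible because the labels give no replicate numbers that groups share, the dogs being separate cases numbered in accession order. Without counting single-dog fits, 148 other counts stayed within 1.5 times, 101 score differences moved by less than the spread, and 1284 single values kept their direction and side of the threshold, while 49 lost a call and 27 gained one. A score over the tested members alone was also added after seeing the data. Signal over background limits the TZL values most, since 13 of the 36 members had a mean below the minimum there.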

Other observations

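The NBNT dog, which the labels place in neither phenotype, had 25 of the 39 measured mitosis genes at or above the minimum, against 27 to 35 in MZL dogs and 12 to 33 in TZL dogs. CDK1 had a log2 intensity of 6.79 in this dog, KIF15 of 4.13, STMN1 of 11.37 and MYBL2 of 5.94, each inside the range of the TZL dogs and below every MZL dog but for CDK1, which also lay inside the MZL range. NUMA1 was at 6.62, above every TZL dog and inside the range of MZL. The 7 T cell markers averaged 11.1 and the 6 B cell markers 7.85. As a single dog it has no replicate error.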
